A study of Rattus norvegicus with 6 samples.

Results

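The expression of 10 genes of the integrated stress response was followed in rat adipose-derived mesenchymal stem cells, which are stromal cells from fat, here of Sprague Dawley rats. They are Atf4, Ddit3 (which encodes CHOP), Atf3, Atf5, Cebpb, Trib3, Ppp1r15a, Chac1, Vldlr and Stc2, and each was found by its gene symbol among the 21857 rows of the deposited count table. All 10 passed the filter on low counts, as did 12298 genes in all. The genes were selected from the pathway with the difference between the 2 groups already known, so that difference is described here and not tested.

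The vehicle group (3 libraries) and the BCAA group (3 libraries) were both kept in DMEM/HG made without branched chain amino acids (leucine, isoleucine and valine, here BCAA) but with 10% FBS, and both received 100 µM hydrogen peroxide. The BCAA group had 3.432 mM BCAA and the vehicle group had vehicle, for 12 h in each case. No cells without hydrogen peroxide were analysed here. The labels do not say what the vehicle was, how the amino acids were mixed or whether replicates were separate cultures or animals, so the errors measure the spread between these libraries.

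The integrated stress response works through eIF2, the factor that brings the initiator tRNA to the ribosome. Kinases that sense a lack of amino acids, endoplasmic reticulum stress, haem shortage or double-stranded RNA phosphorylate eIF2. General protein synthesis then falls while the mRNA of the transcription factor ATF4 is translated better, so much of the control of ATF4 lies outside its mRNA level. ATF4 turns on further transcription factors (CHOP, ATF3, ATF5), feedback genes (Trib3, Ppp1r15a) and genes of metabolism and secretion.

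Library totals ran from 12725344 to 15739731 counts. Vehicle replicate 1 stood apart on the first principal component (29.1% of the variance), and mitochondrially encoded genes took 6.58% of its counts against 4.91% and 4.92% in the other vehicle libraries and 5.60% to 6.24% in the BCAA libraries. Values without that library are therefore given beside a named fold change or list median that it moved by over 1.5 times or turned in sign. All 9 stromal markers were present, with summed levels of 12110 to 14705 CPM (counts scaled by library size) in the vehicle libraries and 12808 to 13686 CPM in the BCAA libraries. Macrophage and leukocyte markers summed to 184 to 191 CPM with vehicle and 180 to 188 CPM with BCAA, most of it Cd14 (96.7 to 111 CPM), with Cd68, Adgre1, Csf1r and Ptprc between 14.1 and 34.99 CPM and the T cell marker Cd3e at 0 counts. Endothelial markers summed to 3.36 to 5.52 CPM, most of it Tek, with Cdh5 at 0 to 3 counts per library. Adipocyte markers summed to 3.87 to 6.65 CPM. Of the epithelial and mesothelial markers, Msln was at 59.1 to 72.3 CPM and the other 5 were under 1 CPM. The 7 smooth muscle and pericyte markers summed to 887 to 953 CPM with vehicle and 610 to 636 CPM with BCAA. Most of that sum was Tagln (507 to 820 CPM over the libraries). Of the 6 tested, 2 (Acta2 and Tagln) were called lower, and Cnn1, Myh11, Cspg4 and Des were not called. A gene not called may still differ: Cnn1 had 365, 385 and 312 counts with vehicle and 262, 286 and 225 with BCAA. Those of Cspg4 overlapped (103, 126 and 93 with vehicle, 134, 102 and 77 with BCAA). The part of these marker differences between the groups in the results below was not tested.

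Promoter sequences of 9 of the 10 genes were matched by symbol in RefSeq (build GRCr8, 250 bases before to 50 after the start site), and Atf3 was not matched. They were searched for the core of the C/EBP-ATF response element bound by ATF4 dimers (TGATGNAA, both strands), the cAMP response element (TGACGTCA) and the AP-1 element (TGANTCA), of which the last 2 read the same on both strands. No matches overlapped in these genes. The C/EBP-ATF core was found in 2 of the 9, Trib3 and Chac1, and in 3.98% of all 33469 promoters. The cAMP response element was found in Ppp1r15a alone among the 9 and in 1.83% of all promoters, and the AP-1 element in Ddit3, Atf5 and Ppp1r15a and in 7.33% of all promoters. A match is a description of letters and not a measured binding site. The windows of 120 bases with matches in Trib3 (chr3:161275534-161275653, minus strand), Chac1 (chr3:126795921-126796040, plus strand) and Ppp1r15a (chr1:105139597-105139716, minus strand) are shown because these genes carry the C/EBP-ATF core or the only cAMP response element. Capitals mark the matches. In Ppp1r15a the last capitals are an AP-1 match whose final base is the first base of the transcript and lies outside the window.
Trib3: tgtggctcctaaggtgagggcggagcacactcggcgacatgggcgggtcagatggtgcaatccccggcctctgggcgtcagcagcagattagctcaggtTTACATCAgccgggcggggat
Chac1: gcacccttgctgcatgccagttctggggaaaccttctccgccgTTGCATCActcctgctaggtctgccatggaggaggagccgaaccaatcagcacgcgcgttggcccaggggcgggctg
Ppp1r15a: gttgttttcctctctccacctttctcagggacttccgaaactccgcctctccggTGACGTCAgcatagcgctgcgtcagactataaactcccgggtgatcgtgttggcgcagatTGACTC
The core in Trib3 lies 21 to 14 bases before the start and that in Chac1 167 to 160 bases before it, both on the minus strand of the gene. As given below, Trib3 lay higher with BCAA in every library and Chac1 did not, so the 2 genes with the core differed in whether their groups overlapped.

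Of the 10 genes, 5 were higher in every BCAA library than in every vehicle library (Atf3, Stc2, Vldlr, Trib3 and Ppp1r15a), 0 were lower in every one, and in 5 the groups overlapped (Ddit3, Atf5, Cebpb, Atf4 and Chac1). Over all genes tested, 9.29% had every BCAA library above every vehicle library 8.76% had every one below, and 18.1% did not overlap in one direction or the other. Only Atf3 was called (edgeR's quasi-likelihood test, adjusted p under 0.05 over all genes), 1 of 10, where 0.228% of all genes tested were called 0.0569% were called higher and 0.171% lower. Since the genes were selected on this contrast, nothing is read from these counts. The median log2 fold change was 0.11 over the 10 genes and 0.0035 over all genes. RNA from bulk cultures cannot tell more transcript per cell from more cells that carry it.

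**Figure D1:**
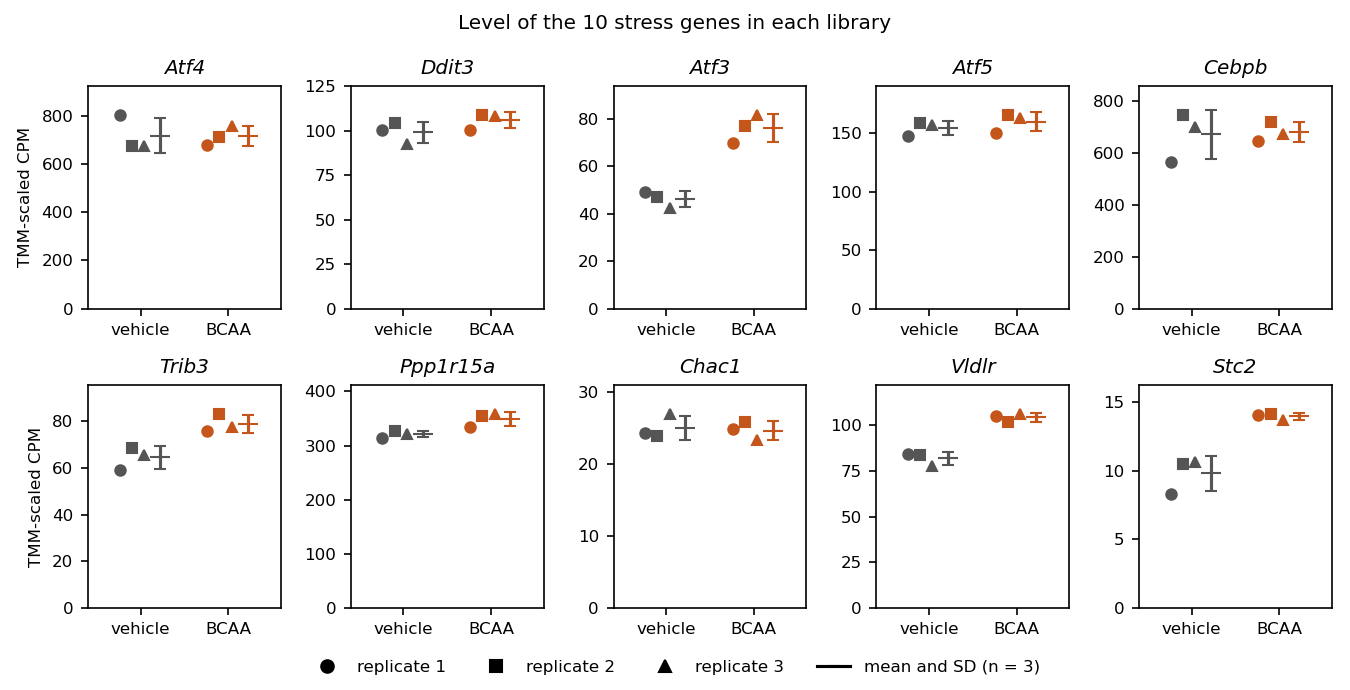
Level of each of the 10 genes (y axis, CPM with TMM-scaled library sizes, from 0) in the 3 vehicle (grey) and 3 BCAA (orange) libraries, with symbols for the replicate number and bars for the mean and SD. The points of the groups are separate for Atf3, Trib3, Ppp1r15a, Vldlr and Stc2, and Atf4 and Cebpb have their most distant point in vehicle replicate 1.

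Atf4, the factor at the head of the response, was at 803, 675 and 674 CPM in vehicle replicates 1 to 3 and at 678, 711 and 757 CPM in BCAA replicates 1 to 3. The groups overlapped, and vehicle replicate 1 was the highest of the 6 libraries. The log2 fold change was -0.0043 (SE 0.08, 95% interval -0.17 to 0.16), so a small change in either direction is not excluded. Without vehicle replicate 1 it was 0.09, and without scaling factors 0.03. It was -0.05 without vehicle replicate 2, without vehicle replicate 3 or without BCAA replicate 3.

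Ddit3 encodes CHOP, a factor that pairs with C/EBP proteins and is known for promoting cell death under lasting stress. It was at 100.3, 104 and 92.6 CPM with vehicle and at 100.6, 109 and 108 CPM with BCAA. The lowest value was in vehicle replicate 3, and the other 5 libraries lay within a narrow range. The log2 fold change was 0.09 (SE 0.07, 95% interval -0.06 to 0.25). It ran from 0.05, without vehicle replicate 3, to 0.13, without vehicle replicate 2, when each library was left out in turn.

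Atf3 encodes a stress-induced bZIP factor that can repress or activate its targets depending on its partner. It had 684, 740 and 544 counts with vehicle and 1032, 1217 and 1043 with BCAA, or 49.0, 47.0 and 42.6 CPM against 69.7, 77.1 and 81.6 CPM. Each BCAA library was well above the highest vehicle library. The mean was 46.2 ± 3.25 CPM with vehicle and 76.1 ± 6.05 CPM with BCAA (SD, n = 3 each), a 1.65-fold higher level and a log2 fold change of 0.72 (SE 0.09). That difference was the largest of the 10 and stood at the 99.2nd percentile of all genes tested. It ran from 0.67 to 0.78 when each library was left out in turn.

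Atf5 encodes a relative of ATF4 that takes part in the mitochondrial stress response. Its level was 148, 159 and 157 CPM with vehicle and 151, 166 and 163 CPM with BCAA. In both groups replicate 1 was lowest, and the groups overlapped (log2 fold change 0.05, SE 0.07). When each library was left out in turn the log2 fold change ran from 0.02, without vehicle replicate 1 or BCAA replicate 2, to 0.09, without BCAA replicate 1.

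Cebpb encodes C/EBP beta, a partner of ATF4 and CHOP that also drives early fat cell differentiation. It was at 566, 745 and 701 CPM with vehicle and at 646, 720 and 672 CPM with BCAA. The vehicle group held both the lowest and the highest of the 6 values, and its SD was 93.4 CPM against 37.5 CPM with BCAA. The log2 fold change of 0.02 (SE 0.09) became -0.09 without vehicle replicate 1 and -0.03 without BCAA replicate 2, so the sign was not stable.

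Among the feedback genes, Trib3 encodes a pseudokinase that binds ATF4 and CHOP and restrains them. It was at 59.2, 68.6 and 65.7 CPM with vehicle and at 75.9, 83.0 and 77.7 CPM with BCAA. The groups did not overlap, and the gap between the highest vehicle and the lowest BCAA library was smaller than the range within the vehicle group. The level was 1.22-fold higher with BCAA (log2 fold change 0.29, SE 0.08), and the log2 fold change was 0.23 without vehicle replicate 1.

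Ppp1r15a encodes GADD34, which directs a phosphatase to eIF2 and so ends the response. Its level was 315, 327 and 321 CPM with vehicle and 334, 355 and 358 CPM with BCAA. The groups were separate by a small margin. The log2 fold change was 0.12 (SE 0.06, 95% interval -0.01 to 0.25), a 1.09-fold higher level. Its relative Ppp1r15b, which does the same in unstressed cells, was at 71.5 ± 4.83 and 84.7 ± 0.712 CPM (SD, n = 3 each; log2 fold change 0.24, SE 0.07; edgeR's adjusted p = 0.19).

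Of the effector genes, Chac1 encodes an enzyme that breaks down glutathione. It was at 24.3, 23.9 and 26.9 CPM with vehicle and at 24.8, 25.8 and 23.2 CPM with BCAA. The vehicle and BCAA values were interleaved, with both extremes in replicates 3. The log2 fold change was -0.02 (SE 0.10, 95% interval -0.23 to 0.19), and it was -0.04 without vehicle replicate 1 and 0.03 without vehicle replicate 3.

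Vldlr encodes the very low density lipoprotein receptor, which takes up triglyceride-rich particles and which ATF4 induces under endoplasmic reticulum stress. It was at 84.2, 84.0 and 78.0 CPM with vehicle and at 105, 102 and 106 CPM with BCAA. The libraries of each group lay close together and the groups were far apart by comparison. The mean was 82.1 ± 3.54 CPM with vehicle and 104 ± 2.33 CPM with BCAA (SD, n = 3 each), a 1.27-fold higher level with a log2 fold change of 0.35 (SE 0.07). With vehicle replicate 1 left out it was 0.37. Vldlr was not called with all 6 libraries and the settings used here, and it passed the threshold in 4 of 14 alternatives. These were without vehicle replicate 1, with DESeq2, without the filter on low counts and without scaling factors. In those settings 491, 131, 124 and 29 of all genes were called, against 28 with the settings used here.

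Stc2 encodes stanniocalcin 2, a secreted glycoprotein that inhibits the protease PAPP-A. It had 116, 165 and 136 counts with vehicle and 209, 223 and 175 with BCAA, the fewest counts of the 10 genes, or 8.31, 10.5 and 10.7 CPM against 14.1, 14.1 and 13.7 CPM. Every BCAA library was above every vehicle library, and vehicle replicate 1 was the lowest. The level was 1.42-fold higher with BCAA (log2 fold change 0.51, SE 0.13), and the log2 fold change was 0.41 without vehicle replicate 1.

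**Figure D2:**
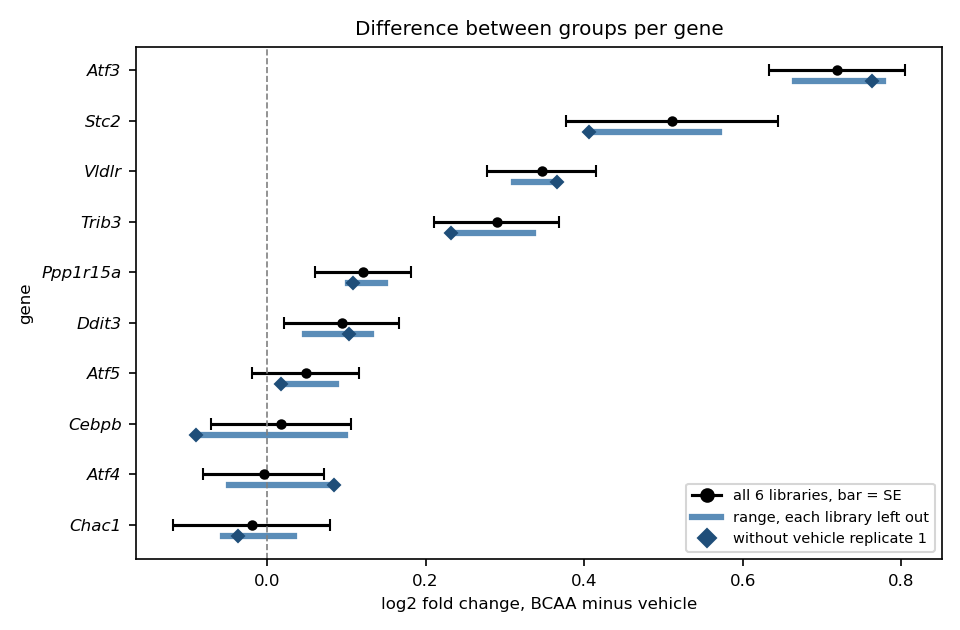
Log2 fold change of each gene (x axis, BCAA minus vehicle) with all 6 libraries (black, bar = SE), its range when each library is left out in turn (blue line) and its value without vehicle replicate 1 (blue diamond). Atf3, Stc2, Vldlr, Trib3, Ppp1r15a, Ddit3 and Atf5 stay above 0 throughout, while the ranges of Cebpb, Atf4 and Chac1 cross 0.

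In order of the log2 fold change, Atf3 (0.72) stood first, followed by Stc2 (0.51), Vldlr (0.35), Trib3 (0.29), Ppp1r15a (0.12), Ddit3 (0.09), Atf5 (0.05), Cebpb (0.02), Atf4 (-0.0043) and Chac1 (-0.02). Each neighbour in that order differed from the next by less than the sum of their SEs, with the exception of Trib3 and Ppp1r15a, which were 0.17 apart with SEs of 0.08 and 0.06. Without scaling factors all 10 were positive. Replicate spread was modest: the biological coefficient of variation was 6.20% to 9.04% for the 10 genes, with a median of 7.22% against 8.80% for all genes tested.

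A count set against the Atf4 count of the same library needs no scaling factor. Atf3 had 6.10, 6.96 and 6.32 counts per 100 Atf4 counts with vehicle and 10.3, 10.9 and 10.8 with BCAA. The groups were further apart on this measure relative to their spread than in CPM, with means of 6.46 ± 0.443 and 10.6 ± 0.313 (SD, n = 3 each). Ddit3 had 13.9 ± 1.47 and 14.8 ± 0.517 counts per 100 Atf4 counts, and its groups overlapped. Of the 9 genes, 4 were above vehicle in every BCAA library, namely Atf3, Trib3, Vldlr and Stc2, and Ppp1r15a overlapped on this measure (39.2, 48.4 and 47.6 with vehicle; 49.3, 49.96 and 47.2 with BCAA). In all 9 the lowest vehicle ratio was that of vehicle replicate 1, the library with the highest Atf4 level.

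**Figure D3:**
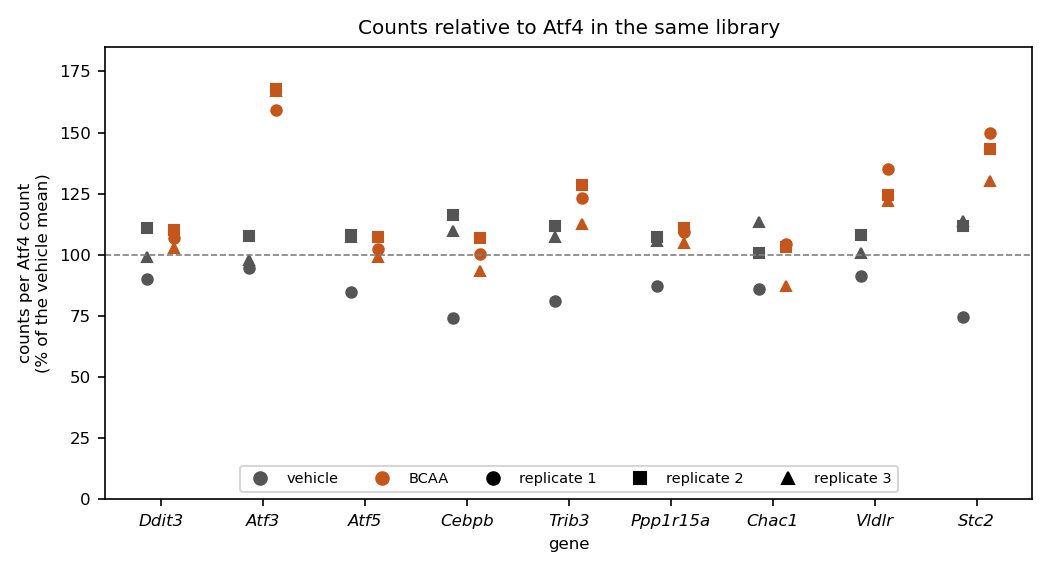
Counts of each of 9 genes divided by the Atf4 counts of the same library (y axis, percent of the vehicle mean, from 0) in the vehicle (grey) and BCAA (orange) libraries, with symbols for the replicate number. Atf3, Trib3, Vldlr and Stc2 are separate between groups, and vehicle replicate 1 (grey circles) is lowest among the vehicle libraries for each gene.

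The genes around these 10 were taken from 6 lists of genes with known roles, written with some results of these data in view. Together they held 124 symbols, of which 121 were found and 114 tested. Of the 114, 0 were called by edgeR in either direction, against 0.228% of all genes tested. At an unadjusted p under 0.05 there were 15 higher and 4 lower, where 11.8% of all genes reached that level in one direction or the other. With DESeq2 2 of the 114 were called, Stc1 higher and Creb3l1 lower. Without vehicle replicate 1, when 491 of all genes were called, 8 of the 114 were called: Hmox1, Stc1, Slc38a2 and Slc7a11 higher and Creb3l1, Manf, Jund and Ppp1ca lower. The shares of all genes with every BCAA library above or below every vehicle library, 9.29% and 8.76%, are the background for the counts of that kind in each list.

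Upstream of ATF4, the list of eIF2 kinases, eIF2 and eIF2B subunits and their regulators had 0 of 17 called, 1 higher and 0 lower at an unadjusted p under 0.05, and a median log2 fold change of -0.05, which was -0.01 without vehicle replicate 1. In 1 of the 17 every BCAA library was above every vehicle library and in 0 every one was below. Ppp1r15b, given above, was the gene with the smallest p. Eif2ak3 encodes PERK, the eIF2 kinase of the endoplasmic reticulum, and had means of 54.1 ± 1.90 CPM (vehicle) and 59.5 ± 5.14 CPM (BCAA; edgeR's adjusted p = 0.55). Dnajc3, an inhibitor of PERK, had a log2 fold change of -0.14 (SE 0.09) and Eif2b2, a subunit of the exchange factor of eIF2, -0.11 (SE 0.08), and without vehicle replicate 1 these were -0.02 and -0.17. Eif2ak4, which encodes the amino acid sensor kinase GCN2 and was chosen after its values were seen, was at 33.7, 34.7 and 36.6 CPM with vehicle and 37.5, 37.7 and 34.4 CPM with BCAA, and the groups overlapped.

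Among 28 other bZIP factors tested, which include partners of ATF3, ATF4 and CHOP, 0 were called, 2 were higher and 1 lower at an unadjusted p under 0.05, and the median log2 fold change was 0.02. The sign of that median was not stable: it was -0.05 without vehicle replicate 1, -0.01 without BCAA replicate 1 and 0.08 without vehicle replicate 2. In 5 of the 28 every BCAA library was above every vehicle library and in 1 every one was below. Creb3l1, a membrane-bound factor that is released under stress and drives collagen secretion, had means of 65.4 ± 3.62 CPM (vehicle) and 51.2 ± 1.09 CPM (BCAA; SD, n = 3 each). All 3 BCAA libraries were below all vehicle libraries (log2 fold change -0.35, SE 0.08; edgeR's adjusted p = 0.071). Jun, a partner of ATF3, was at 124, 174 and 166 CPM with vehicle and 183, 192 and 175 CPM with BCAA, with vehicle replicate 1 far below the rest. Atf1 (0.17, SE 0.07) and Creb3 (-0.14, SE 0.07) had adjusted p of 0.38 and 0.49 with edgeR.

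Of 20 stress and death targets of ATF4 or CHOP tested, 0 were called, while 7 were higher and 0 lower at an unadjusted p under 0.05. Their median log2 fold change was 0.15, 8 of the 20 had every BCAA library above every vehicle library and 1 had every one below. Hmox1, haem oxygenase 1, was at 403, 360 and 354 CPM with vehicle and 426, 453 and 469 CPM with BCAA (log2 fold change 0.27, SE 0.07; edgeR's adjusted p = 0.13). The groups did not overlap. Sesn2, a leucine-binding inhibitor of mTORC1, was at 73.6, 78.5 and 80.5 CPM with vehicle and 93.9, 91.7 and 89.7 CPM with BCAA (log2 fold change 0.24, SE 0.07; edgeR's adjusted p = 0.17). Ddit4, also an inhibitor of mTORC1, had a log2 fold change of 0.30 (SE 0.09), and Ero1a, an oxidase of the endoplasmic reticulum, had 0.23 (SE 0.07). Nupr1 had 0 counts in every library and Fgf21 had 1 count, in vehicle replicate 1, so neither was tested. Whether the 0 counts mean absent transcripts cannot be told, since the annotation used for counting is not given. Bbc3 was not found by its symbol and was not analysed here.

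Amino acid targets of ATF4, that is synthesis enzymes, transporters and tRNA synthetases, had 0 of 26 called, 4 higher and 0 lower at an unadjusted p under 0.05, and a median log2 fold change of 0.05. In 9 of the 26 every BCAA library was above every vehicle library and in 0 every one was below. The 4 were the cystine transporter gene Slc7a11 (0.22, SE 0.07), the neutral amino acid transporter gene Slc38a2 (0.19, SE 0.07), the glycine transporter gene Slc6a9 (0.24, SE 0.10) and the alanine aminotransferase gene Gpt2 (0.29, SE 0.13), with edgeR's adjusted p from 0.20 to 0.42. Without vehicle replicate 1 the values of Slc6a9 and Gpt2 were 0.13 and 0.18. Asns, asparagine synthetase, the classical ATF4 target of amino acid shortage, was chosen after its values were seen. It was at 134, 105 and 113 CPM with vehicle and 117, 112 and 123 CPM with BCAA. As with Atf4, vehicle replicate 1 was the highest and the groups overlapped.

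The other arms of the unfolded protein response, run by ATF6 and IRE1, had 0 of 17 called, 0 higher and 2 lower at an unadjusted p under 0.05, and a median log2 fold change of -0.07. In 0 of the 17 every BCAA library was above every vehicle library and in 4 every one was below. Hspa5 encodes BiP, the main chaperone of the endoplasmic reticulum, and was at 4260, 4156 and 4104 CPM with vehicle and 3634, 3850 and 3866 CPM with BCAA. The BCAA libraries were lower in each case (log2 fold change -0.14, SE 0.06; edgeR's adjusted p = 0.38). Creld2 (-0.14, SE 0.07), Manf (-0.14, SE 0.08) and Sdf2l1 (-0.15, SE 0.10), further genes of this response, also had negative values. Without vehicle replicate 1 those of Manf and Sdf2l1 were -0.24 and -0.23.

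Relatives of the 10 genes were compared with them. Of 11 tested, 0 were called, 2 were higher and 1 lower at an unadjusted p under 0.05, and the median log2 fold change was 0.08. In 3 of the 11 every BCAA library was above every vehicle library and in 0 every one was below. Some of the 11 were already counted above, Ppp1r15b in the eIF2 list and Cebpa, Cebpd, Cebpg and Jdp2 among the bZIP factors. Ppp1r15b and Cebpg were among the 3, and Ppp1r15b among the 2 that were higher. Stc1, stanniocalcin 1, was at 63.7, 59.5 and 56.3 CPM with vehicle and 81.9, 68.9 and 84.7 CPM with BCAA. The groups did not overlap, as for Stc2 (log2 fold change 0.39, SE 0.09; edgeR's adjusted p = 0.089). The other Tribbles genes were low, with Trib1 at 5.03 ± 1.42 and 6.24 ± 0.353 CPM and Trib2 at 3.44 ± 0.521 and 2.25 ± 0.752 CPM (vehicle and BCAA, SD, n = 3 each), and both overlapped.

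**Figure D4:**
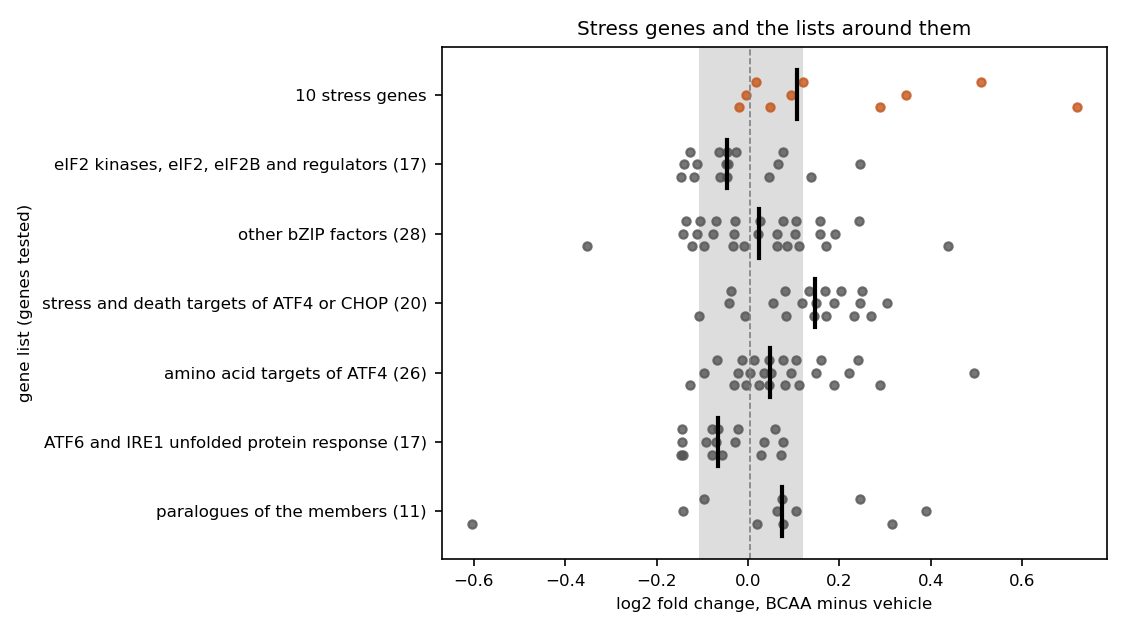
Log2 fold change (x axis, BCAA minus vehicle) of the 10 stress genes (orange) and of the tested genes of 6 lists (grey), one point per gene and a black line at each median. The grey band holds the middle of all tested genes, from the lower quartile of -0.11 to the upper quartile of 0.12, and 4 of the 10 genes (Atf3, Stc2, Vldlr and Trib3) lie well to its right.

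The genes whose levels were most like that of Atf3 over the 6 libraries were, by Pearson's r of log2 CPM among 9316 named genes, Traf1 (0.996), Hpx (0.990), Fam49b (0.989), Tmx1 (0.988) and Ifit3 (0.987). In all 5 every BCAA library lay above every vehicle library. Atf3 itself was separate between the groups, so a high r with it over the 6 libraries all but required this, and it is not a separate result. Traf1, an adaptor of TNF receptors, was at 30.7, 30.6 and 29.5 CPM with vehicle and 36.6, 37.7 and 39.5 CPM with BCAA. Among the stress genes Vldlr had the highest r with Atf3 over the 6 libraries, 0.976 at rank 16, which includes the difference between the groups. After the group mean was taken from each library's log2 CPM, r with Atf3 was 0.576 for Vldlr, 0.835 for Ddit3 and 0.781 for Atf4. For Ppp1r15a and Atf5 it was 0.55 and 0.27. It was negative for Chac1 (-0.70), Stc2 (-0.58), Cebpb (-0.22) and Trib3 (-0.14). The genes most like Ddit3 were Mgmt (0.974), Parp1 (0.973), Cystm1 (0.969), Ints10 (0.968) and Shb (0.966), and Atf3 was at rank 267 (r = 0.754). With 6 libraries and this many genes, high values of r arise readily.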

How the data were processed

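TRIzol was used for RNA isolation and a NEBNext Ultra kit for the libraries, per the labels' protocols. The authors deposited 1 table of unnormalized read counts, with gene symbols as rows and 6 libraries as columns. The submitters' processing notes list Trimmomatic, FastQC, STAR, HTSeq and the build rn6, without versions. The annotation and the strand setting are not given in the sources, so a gene's reads cannot be told from those of an overlapping or antisense gene. Transcript lengths were not used, so levels are not compared between genes.

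The 10 genes and the lists were chosen with earlier results of these data known. edgeR 4.0.16 (R 4.3.3) was run on the deposited counts of all genes: filterByExpr (minimum count 10, minimum total 15), TMM scaling, a robust quasi-likelihood fit with the group as the only term, and Benjamini-Hochberg adjustment over 12298 genes, called under 0.05. The SE of a log2 fold change was computed as the absolute log2 fold change over the root of the F statistic. CPM use TMM-scaled library sizes, and log2 CPM a prior count of 2. The fit was tested on simulated data. Chi-square per degree of freedom between libraries was 2.65 to 18.1 over genes, so no library was a copy of another. List symbols were matched through RefSeq synonyms (GRCr8). Named genes are the 10 genes, up to 4 per list with the smallest p, and the 5 most like Atf3 and Ddit3 (mean of at least 5 CPM). Alternatives were DESeq2 1.42.0, other scalings and filters, no robust estimation, the replicate number as a block, and each library left out.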

Additional observations from a re-analysis of the deposited data

How the results depend on the processing

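Of all genes tested, 28 were called (7 higher, 21 lower). The count was 131 with DESeq2 (57 higher, 74 lower), 124 with no filter on low counts (57 higher, 67 lower), 29 without scaling factors (11 higher, 18 lower), and 7 to 491 when each library was left out, with 491 without vehicle replicate 1 and 7 to 12 without any other. Of the genes of the lists, 0 were called, 2 with DESeq2, 3 with no filter on low counts and 0 to 8 when each library was left out. The cause of these differences was not tested. With the replicate block 6 genes were called. Same-numbered libraries were not taken as pairs, since the labels state no pairing. The correlations of their deviations from the group means were -0.07, 0.11 and -0.15, and vehicle replicates 1 and 3 did not correlate best with their own number. With so few libraries these values cannot decide whether numbers mark pairs. Total counts were close by number (vehicle and BCAA: 14484051 and 14482260, 15739731 and 15654060, 12725344 and 12802663). The call of Atf3 was kept in 13 of 14 alternatives, the exception being the replicate block, where its log2 fold change was 0.72 (SE 0.09). Vldlr was called in 4 of the 14. All 14 alternatives reuse these libraries and the contrast on which the genes were selected, so these counts are a description and lend no support. The median log2 fold change of the 10 genes ran from 0.09 to 0.14. The sign of Atf4, Cebpb and Chac1 changed in 3, 2 and 3 of the 14 alternatives, and that of the other 7 genes in none. No scaling moved the median of all genes by more than 0.03. Counts limit Stc2 and Chac1 most, with 116 to 407 per library.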

Other observations

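Within the groups some of the 10 genes varied together. After the group mean was taken from each library's log2 CPM, Trib3 and Cebpb had r = 0.979 over the 6 libraries. Atf5 and Ppp1r15a had r = 0.946 and Stc2 and Cebpb r = 0.902, while Chac1 and Vldlr had r = -0.933 and Atf4 and Stc2 r = -0.920. Of these deviations from the group mean, vehicle replicate 1 held the lowest of Cebpb, Trib3 and Stc2 and the highest of Atf4. It also held the highest of Vldlr, by a small margin (0.038 against 0.034 in vehicle replicate 2). Those of Atf5 and Ppp1r15a were lowest in BCAA replicate 1. Vehicle replicate 1 held neither extreme of Chac1, and its part in these correlations was not tested. They were chosen after the data were seen from 45 pairs and share libraries and scaling factors, and no test was made.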
